A study of Mus musculus with 24 samples.

Results

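Malat1, Neat1, Kcnq1ot1, Miat, Gas5, Snhg14 and Pvt1 are 7 long noncoding RNA (lncRNA) genes, chosen by name among the 56923 gene identifiers counted in this study of mouse cardiomyocyte (CM) nuclei. GENCODE classes all 7 as lncRNA genes. The study sorted nuclei of the hearts of C57BL/6N mice, whose sex was not selected, by PCM1, a centrosomal protein that gathers around the nucleus of CMs, at postnatal days 1, 7 and 14 (P1, P7 and P14), and sequenced the 3′ ends of their polyadenylated RNA. Controls were XMLC2(-)Casp2(fl/fl) and Casp2-depleted animals XMLC2(+)Casp2(fl/fl), so both carried floxed alleles of Casp2, the protease of the PIDDosome, and the depleted animals also carried a Cre recombinase driven by the CM promoter XMLC2. Each of the 24 libraries was made from a pool of hearts, 15 at P1, 6 at P7 and 2 at P14, with 4 libraries a group, and 3 libraries that the study set aside for low quality (replicate 1 of the P1 controls, replicate 3 of the P14 controls and replicate 1 of the Casp2-depleted group at P14) were left out of the main fit, which left 3 or 4 libraries a group.

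Nuclear lncRNAs work where they are transcribed or in bodies within the nucleus, so nuclei keep what a whole-cell extract dilutes. Malat1 is among the most abundant RNAs of most mammalian nuclei and gathers in nuclear speckles, next to stores of splicing factors. Its 3′ end is not made by the usual polyadenylation machinery: RNase P cuts off a tRNA-like RNA, and the end left behind carries an A-rich tract written in the genome. Neat1 is the scaffold of paraspeckles, bodies that hold RNA and RNA-binding proteins. Kcnq1ot1 is transcribed from the paternal chromosome inside Kcnq1 and silences imprinted neighbours in cis, and Snhg14 is the long paternal transcript that hosts clusters of small nucleolar RNAs (snoRNAs) and runs into Ube3a from the opposite strand. Gas5 is a snoRNA host whose spliced RNA is turned over by nonsense-mediated decay, Miat is an RNA of nuclear bodies first named for an association with myocardial infarction, and Pvt1 lies next to Myc.

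The A-rich tract of Malat1 is shown because it is the sequence that an oligo(dT) primer can meet in this RNA, with the longest run of A in Neat1 beside it for comparison. Both are read from the GRCm39 genome, 5′ to 3′ on the RNA strand, with the run of A in capitals. The Malat1 stretch lies at chr19:5846007-5846036 on the minus strand, and its run begins at base 7576 of the 7886 bases of the gene. The Neat1 stretch lies at chr19:5885953-5885977 on the minus strand.
Malat1: cctagctttAAAAAAAAAAAAgcaaaagac
Neat1: ctggactatAAAAAAAccttcatga
The Malat1 run is 12 bases long, and the longest run of A in Neat1 is 7. Runs of at least 12 A on the RNA strand numbered 1 in Malat1, 10 in Kcnq1ot1, 10 in Snhg14, 18 in Pvt1 and 0 in Neat1, Miat and Gas5. Such a run lay in 77.2% of the 5474 tested genes on the chromosomes of the 7 members, genes of all lengths, and the median over those genes was 0.054 runs per kb against 0.13 in Malat1.

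The members differed in how far their loci can be counted apart from others. Malat1 (chr19:5845717-5853602) and Neat1 (chr19:5874736-5897132) lie next to each other on the minus strand. Kcnq1ot1 (chr7:142731402-142850327, minus strand) lies within Kcnq1 on the opposite strand. Snhg14 (chr7:58957672-59628040, minus strand) spans 211 other annotated genes on its own strand, most of them snoRNAs, and overlaps Ube3a on the other strand. Gas5 (chr1:160861793-160866118, plus strand) overlaps Zbtb37 on the other strand. Miat (chr5:112361094-112377261, minus strand) and Pvt1 (chr15:61888639-62249945, plus strand) overlap unnamed or small genes. Reads were counted over whole genes, introns included, with a strand setting that the sources used here do not give, so the values of Kcnq1ot1, Snhg14 and Gas5 are uncertain where these genes overlap others.

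The libraries of the fit held 891817 to 2924097 reads on genes (median 1452114). A further 34.3% to 76.1% of the counted reads fell on no gene, 36.8% to 73.9% at P1, 34.3% to 64.3% at P7 and 63.7% to 76.1% at P14. The 8 CM markers were all read on each day, with summed levels of 23043 to 75232 CPM (counts per 1000000 reads on genes) at P1, 45182 to 81800 at P7 and 12033 to 44351 at P14. Markers of other cell types were lower, at 0 to 1052 CPM for each list and library. From P7 to P14 the median summed level went from 179 to 463 CPM for endothelial markers, 53.8 to 163 CPM for macrophage markers and 101 to 153 CPM for fibroblast markers, and from 297 to 201 CPM for mural and 27.1 to 1.89 CPM for erythroid markers, while it went from 62076 to 22951 CPM for CM markers. At P1 these medians were 287, 97.1, 114, 381, 19.5 and 36189 CPM in the same order. The ranges of P7 and P14 overlapped for each list of other cells, and the part of cell makeup in the results was not tested. Casp2 itself was too low to check the labels, with 5, 3, 1 and 0 reads in the P7 controls, 5, 3, 0 and 0 in the P7 Casp2-depleted libraries and none at P1 or P14 in the fit.

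Malat1 took up far more reads than the other members. It accounted for 0.22% to 7.41% of all reads on genes (median 3.37%), and for 84.2% to 99.5% of the reads on the 7 members together. It was the most read gene of 10 of the 21 libraries and ranked 2 to 10 in the others. The median TMM-scaled CPM over the 21 libraries was 38385 for Malat1, 245 for Neat1, 80.7 for Kcnq1ot1, 74.7 for Pvt1 and 42.1 for Snhg14. Per kb of gene length these medians were 4867 for Malat1, 10.9 for Neat1, 0.68 for Kcnq1ot1, 0.21 for Pvt1 and 0.063 for Snhg14. These libraries read 3′ ends, so reads need not grow with gene length, and the values per kb do not rank the genes by abundance. Miat and Gas5 had a median of 0. The other 5 members were read in all 21 libraries, with 1408858 reads on Malat1, 11090 on Neat1, 3186 on Kcnq1ot1, 2101 on Pvt1 and 1519 on Snhg14. Miat had 26 reads and Gas5 141, each in 6 libraries.

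**Figure D1:**
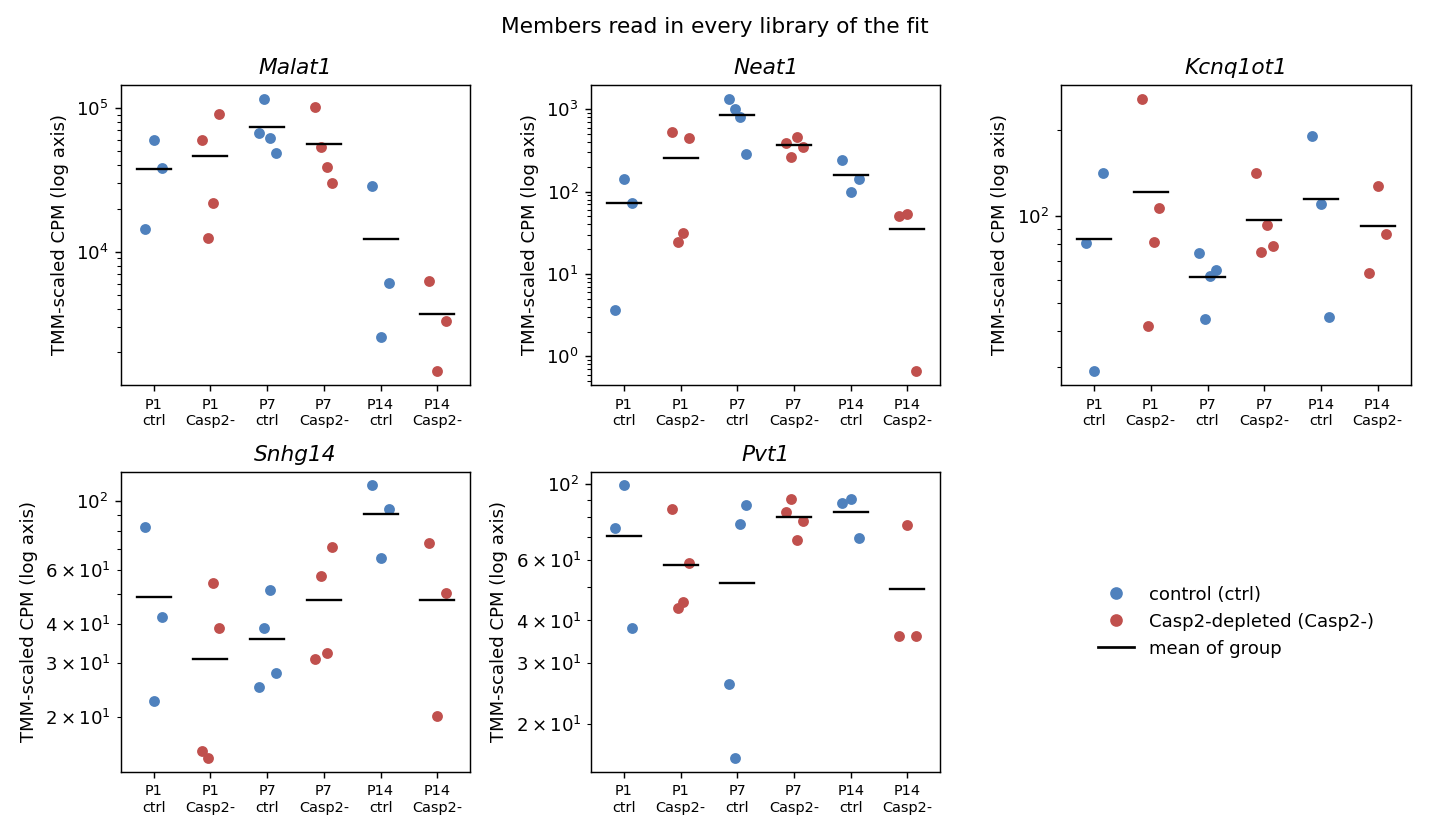
Levels of the 5 members read in all 21 libraries of the fit, as TMM-scaled CPM on a log axis, by day and genotype, with 1 point a library and a bar at the mean of the group. All P14 points of Malat1 and Neat1 lie below all P7 points on this scale, and the other members overlapped between days.

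Malat1 fell between P7 and P14. The TMM-scaled levels at P7 were 66765, 116166, 62019 and 48792 CPM in the controls and 101230, 53406, 39122 and 29995 CPM in the Casp2-depleted libraries. At P14 they were 28519, 2551 and 6063 CPM in the controls and 6290, 1478 and 3295 CPM in the Casp2-depleted libraries. Every P14 library was below every P7 library on this scale, but without TMM scaling, as CPM of reads on genes, the highest P14 library (31545) was above the lowest P7 library (29382), and the P14 controls spread 11.2-fold among themselves. At P1 the levels were 14478, 60118 and 38385 CPM in the controls and 59427, 12521, 21775 and 91203 CPM in the Casp2-depleted libraries, a range that overlapped both later days. In these bulk libraries, fewer nuclei of a type and less RNA per nucleus cannot be told apart.

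Averaged over the genotypes, the log2 fold change of Malat1 at P14 against P7 was -3.25, and the quasi-likelihood F-test of edgeR called it after Benjamini-Hochberg adjustment over 20368 genes (adjusted p = 3.13e-91). A call here is an adjusted p below 0.05 with a log2 fold change beyond 1 in either direction. That fit gave each gene the spread of genes of like level, and the spread of Malat1 between its own libraries did not enter. Its standard error of 0.16 and its adjusted p are therefore too small. A robust estimate lets genes far from the trend keep more of their own spread, which among the members it did for Malat1 and Neat1 only. It was 1 of 3 further edgeR configurations, chosen after the data were seen. With this robust spread the standard error of Malat1 was 0.66 and the adjusted p 0.00504. The other configurations gave adjusted p values of 3e-43 and 2.31e-05, and a linear model with the own spread of each gene gave 0.00227. An exact two-sided permutation test that permuted days within genotypes gave p = 0.000816, unadjusted and the smallest it can give with these 14 libraries, and a mean difference of -3.60 on the log2 CPM scale. limma-voom did not call Malat1, with an adjusted p of 0.649 with TMM scaling and 0.583 with quantile normalization.

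The fall stood in a comparison in which most genes moved the same way. Of the 20368 genes tested, 8.19% were called at P14 against P7, 36 higher and 1632 lower, and over all genes the median of this log2 fold change was -0.87. Malat1 lay 2.38 below that median, and 21.5% of all tested genes had a lower log2 fold change than Malat1. 2 of the 7 members were called, Malat1 and Neat1. Against P1, Malat1 at P14 changed by -2.63 on the log2 scale (standard error 0.65 and adjusted p = 0.033 with robust spread, where the exact permutation test within genotypes gave an unadjusted p of 0.00714), in a comparison that called 3.99% of genes. This call stood in 13 of 16 fits and was lost with limma-voom with TMM (adjusted p = 0.817) or quantile normalization (-1.44, adjusted p = 0.599) and with robust spread and the share of reads off genes combined (-1.62, adjusted p = 0.0956). Between P1 and P7 its log2 fold change was 0.62, short of the fold threshold.

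Within the 21 libraries of the fit, low levels of Malat1 stood beside high shares of reads on no gene. The 5 libraries of the fit with Malat1 below 10000 CPM of reads on genes were P14 libraries, with 72.2% to 76.1% of reads on no gene. P14 control replicate 1, the remaining P14 library of the fit, had 63.7% of reads on no gene and 31545 CPM of Malat1, and P7 Casp2-depleted replicate 4 had 64.3% and 29382 CPM. Among the P1 libraries, those with 68.2% to 73.9% on no gene held 14530 to 26344 CPM, and those with 36.8% to 61.2% held 37152 to 66919 CPM. Of the libraries left out, those with the lowest shares did not have the highest Malat1: P1 control replicate 1 had 9.21% on no gene and 46099 CPM, below P7 libraries with 36.7% and 41.1%, and P14 control replicate 3 had 16.1% and 22044 CPM, below every P7 library. The remaining library left out, P14 Casp2-depleted replicate 1, had 64.1% on no gene and 27751 CPM. These values were close to those of P14 control replicate 1 and P7 Casp2-depleted replicate 4. The paper set P1 control replicate 1 aside for signs of cytoplasmic contamination and the P14 libraries for few detected genes. With the share of reads on no gene entered as a covariate, the log2 fold change of Malat1 at P14 against P7 was -1.45. It was called by edgeR with the trended spread (adjusted p = 1.51e-11) and not with robust spread (adjusted p = 0.281). Day and share overlap only in part in these libraries, and the part of the share in the fall was not tested beyond this covariate. The CM markers moved too, with all 8 called lower at P14 than at P7 and a median log2 fold change of -2.21.

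**Figure D2:**
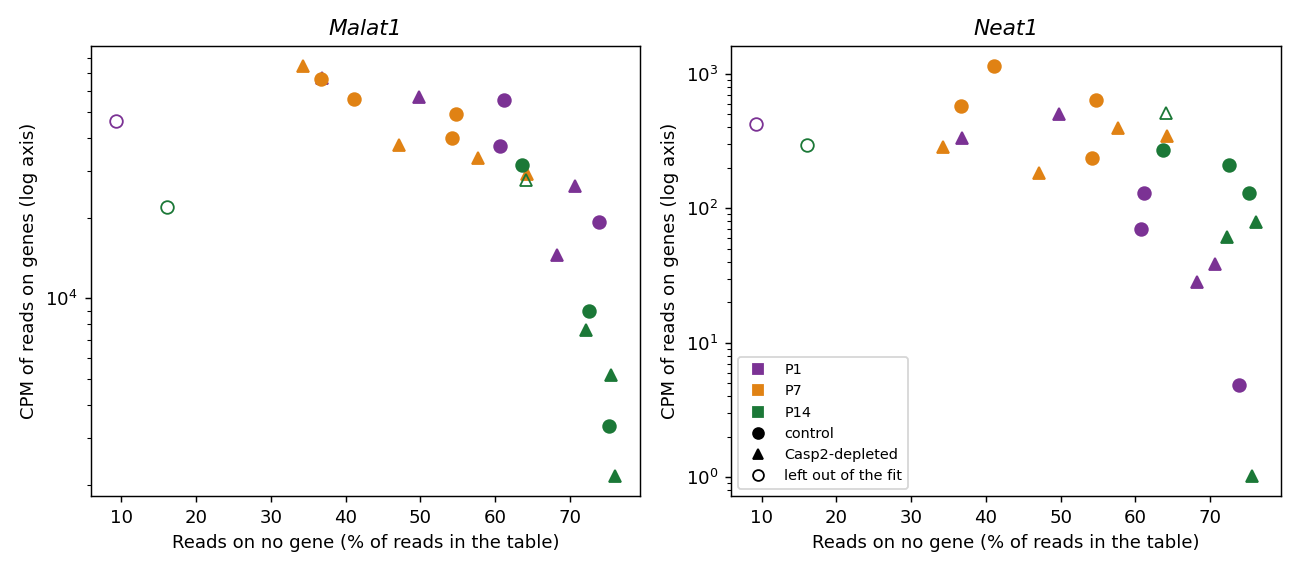
Malat1 and Neat1 as CPM of reads on genes (log axis) against the percentage of counted reads that fell on no gene, with 1 point for each of the 24 libraries, colored by day, with circles for controls, triangles for Casp2-depleted and open symbols for the 3 libraries left out of the fit. The 5 libraries of the fit with the lowest Malat1 are P14 libraries with 72.2% to 76.1% of reads on no gene.

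Neat1 fell over the same interval, and in the controls of the fit its levels were higher at P7 than at P1. At P1 the levels were 3.61, 142 and 72.3 TMM-scaled CPM in the controls and 527, 24.6, 31.8 and 452 CPM in the Casp2-depleted libraries. At P7 they were 1355, 999, 806 and 291 CPM in the controls and 393, 261, 460 and 352 CPM in the Casp2-depleted libraries. At P14 they were 245, 99.8 and 141 CPM in the controls and 50.1, 54.2 and 0.66 CPM in the Casp2-depleted libraries, the last from 1 read. The P14 libraries were all below the P7 libraries on this scale. As CPM of reads on genes the highest P14 value (271) lay above the lowest P7 value (183), and 2 Casp2-depleted P1 libraries lay within the P7 range. P1 control replicate 1, left out of the fit, had 427 CPM of reads on genes, within the range of the P7 controls (237 to 1134).

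At P14 against P7 the log2 fold change of Neat1 was -2.90 (edgeR, adjusted p = 2.22e-07), 2.03 below the median of all genes, and 24.7% of genes had a lower value. With robust spread its standard error was 0.93 and the call was lost (adjusted p = 0.0658), and with the share of reads off genes as a covariate the log2 fold change was -0.94 (adjusted p = 0.688). The other edgeR configurations kept the call (adjusted p = 5.05e-08 and 1.23e-08), as did a linear model with the own spread of each gene (adjusted p = 0.0448). The exact permutation test within genotypes again gave its smallest possible unadjusted p, 0.000816. At P7 against P1 the log2 fold change was 2.04 (edgeR, adjusted p = 0.00431) in a comparison that called 0.133% of genes, all 27 of them higher. Within genotypes it was 3.57 in controls (adjusted p = 0.0011) and 0.50 in Casp2-depleted libraries (adjusted p = 1), and with robust spread neither was called (adjusted p = 0.626 and 1). The averaged call was lost with robust spread (adjusted p = 0.449), with DESeq2 (adjusted p = 0.195), with limma-voom (adjusted p = 0.176) and without P1 control replicate 2, the library with 6 reads of Neat1 (log2 fold change 1.73, adjusted p = 0.192). The other edgeR configurations kept it (adjusted p = 0.00149 and 0.000695), and it was called in 7 of 16 fits. The exact permutation test for it gave an unadjusted p of 0.00939.

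**Figure D3:**
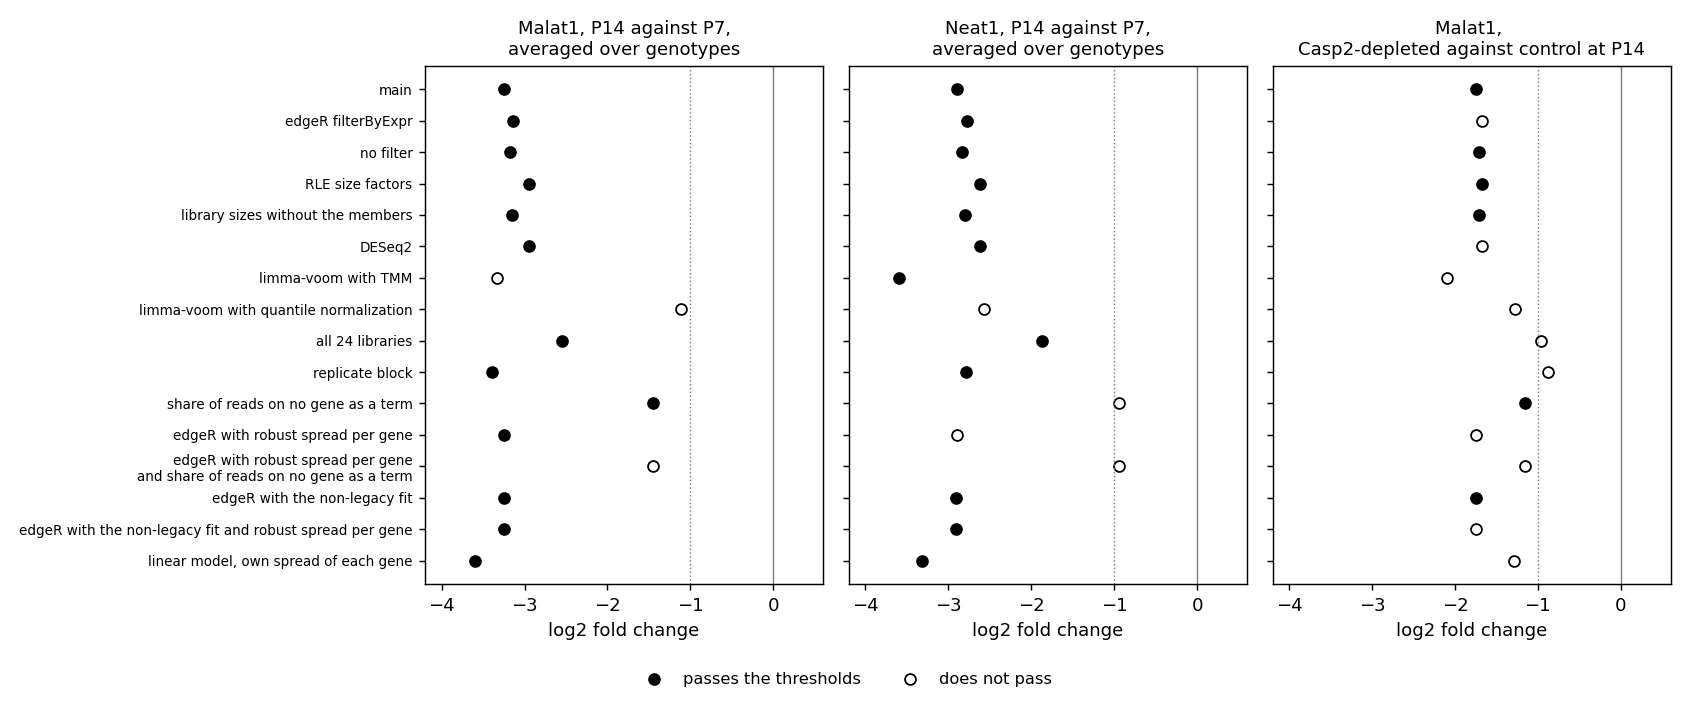
Log2 fold changes of Malat1 and Neat1 at P14 against P7 and of Malat1 in Casp2-depleted against control at P14, 1 point for each way of fitting the counts, filled where the adjusted p was below 0.05 and the log2 fold change beyond 1. Malat1 at P14 against P7 lay below -1 in each of the 16 fits shown and passed in 13, and the genotype difference at P14 passed in 6.

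Kcnq1ot1, Snhg14 and Pvt1 were not called between days. Kcnq1ot1 ranged from 28.9 to 256 TMM-scaled CPM at P1, 43.9 to 142 at P7 and 44.8 to 190 at P14, and its log2 fold change at P14 against P7 was 0.42 (standard error 0.62). Snhg14 ranged from 14.7 to 82.5 CPM at P1, 25.1 to 71.0 at P7 and 20.2 to 112 at P14, with a log2 fold change of 0.67 (standard error 0.83). Pvt1 ranged from 38.1 to 99.3 CPM at P1, 15.8 to 90.4 at P7 and 36.0 to 90.8 at P14, and its log2 fold change was 0.00 (standard error 0.72). The days overlapped for all 3, and with such standard errors a change of 2-fold was not detectable. Relative to the median of all genes they lay 1.28, 1.54 and 0.87 higher at P14 against P7.

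The protein-coding partners of these loci did not stay at the same level. Kcnq1, the potassium channel gene that contains Kcnq1ot1, had a log2 fold change of -1.54 at P14 against P7 (edgeR, adjusted p = 0.00983), and Ube3a, the ubiquitin ligase gene opposite Snhg14, had -2.97 (adjusted p = 0.00562). Snrpn, the imprinted splicing-factor gene at the start of the Snhg14 transcript, had a log2 fold change of 0.53 and Ndn, another paternally expressed gene of that region, 0.26, neither called. Near Malat1 and Neat1, Ltbp3 was called lower and Frmd8 was not. Myc, beside Pvt1, had 6 reads in all 21 libraries.

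Gas5 and Miat were at the limit of detection. Gas5 had 41, 0, 13 and 19 reads in the P7 controls and 45, 0, 0 and 0 in the P7 Casp2-depleted libraries, 3, 0, 0 and 20 in the P1 Casp2-depleted libraries, and 0 in the 3 P1 controls and all 6 P14 libraries. Taken over all libraries of a day, 118 reads at P7 correspond to 7.32 CPM, at least 15.7-fold above the 0.47 CPM that a floor of 3 reads over the P14 libraries allows. The reads of P7 came from 4 of its 8 libraries, so the days overlapped, and the test did not call Gas5. Miat had 3 reads at P1, 9 at P7 and 14 at P14, 13 of the latter in Casp2-depleted libraries. Floors and ratios of this kind cover counting error only.

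Between genotypes, Malat1 was the member with a call, and the call rested on 1 library. At P14 its log2 fold change in Casp2-depleted against control was -1.75 (edgeR, adjusted p = 3.75e-12) in a comparison that called 0.231% of genes, with a mean of 12378 ± 14089 CPM (SD, n = 3) in controls and 3688 ± 2430 CPM (SD, n = 3) in Casp2-depleted libraries. The groups overlapped, with 2 of the 3 controls within the range of the Casp2-depleted libraries. Without P14 control replicate 1 the log2 fold change was -0.22 (adjusted p = 0.901). With the replicate number as a block it was -0.88, short of the fold threshold, and that fit called 9 genes in place of 47. With robust spread the standard error was 0.91 and the adjusted p 0.406, and the other edgeR configurations gave 0.000135 and 0.353. The exact permutation test gave p = 0.5, where 3 against 3 libraries cannot give less than 0.1. P14 control replicate 1 also had the lowest share of reads on no gene among the P14 libraries of the fit.

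Neat1 at P14 was lower in the 3 Casp2-depleted libraries of the fit (0.66 to 54.2 CPM) than in the 3 controls (99.8 to 245 CPM), with a log2 fold change of -2.21 that was not called (edgeR, adjusted p = 0.177). The exact permutation test gave p = 0.1, the smallest that 3 against 3 libraries allow. The Casp2-depleted P14 library left out of the fit had the highest Neat1 of all P14 libraries, 512 CPM of reads on genes, and with all 24 libraries the log2 fold change was -0.77 (adjusted p = 0.847). At P7 the Neat1 log2 fold change was -1.24 (adjusted p = 1) and at P1 it was 1.84 (adjusted p = 0.68), in the opposite direction. edgeR called 0% of genes between genotypes at P1 and 0% at P7, where 1303 and 791 genes had an unadjusted p below 0.05, DESeq2 called 105 and 25, and limma-voom with TMM 49 and 0. Averaged over days 0.0344% of genes were called (2 with the block) and no member, with Malat1 at -0.61.

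The change of the genotype difference between days was tested as an interaction. From P7 to P14 the genotype difference of Malat1 moved by -1.35 (edgeR, adjusted p = 0.00409), in a comparison that called 0.0344% of genes. With robust spread the standard error was 1.17 and the adjusted p 0.902, and the block left 3 calls in place of 7. From P1 to P7, 0% of genes were called (1298 at an unadjusted p below 0.05, 66 by DESeq2 and 4 by limma-voom), and the interaction of Neat1 was -3.07 (adjusted p = 0.606). Kcnq1ot1, Snhg14, Pvt1, Gas5 and Miat were called by edgeR in no comparison of genotypes or interaction. The paper names Gas5 among the genes that differed between genotypes at P7, with limma at the same thresholds. Here the reads of Gas5 at P7 came from 3 control libraries and 1 Casp2-depleted library. At P7 edgeR called 0% of genes, and limma-voom with TMM called none. DESeq2 and limma-voom with quantile normalization did call genes at P7, and whether Gas5 was among them is not reported here. The source of the difference from the paper was not tested.

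The genes whose log2 CPM followed the members most closely over the 21 libraries, among 3034 genes read in every library beside the member, were ENSMUSG00000115610 (Pearson r = 0.97) and Ttc3 (r = 0.96) for Malat1, and Ubxn4 (r = 0.92) and Tacc2 (r = 0.91) for Neat1. For Snhg14 they were 4930554G24Rik (r = 0.81) and Gm32884 (r = 0.74). For Kcnq1ot1, Pvt1, Miat and Gas5 the closest were Bicc1 (r = 0.68), Il1rap (r = 0.71), Tulp4 (r = 0.62) and Cd36 (r = 0.71). Miat and Gas5 were each read in only 6 of the 21 libraries, so their r rests largely on which libraries had a read. All points share their library's depth and share of reads on no gene.

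Other lncRNAs and the protein partners of the members were counted in the same comparison of P14 against P7. In it 8.19% of all genes were called, 1632 of the 1668 calls lower, with the trended spread, and 206 calls were left with the share of reads off genes as a covariate, a fit in which these lists were not counted. The median log2 fold change over all genes was -0.87, or -0.77 with genes without a read set at their bound of 3 reads. Of 5 tested X-inactivation lncRNAs, 3 were called lower, with a list median of -1.92. Xist, which coats the inactive X chromosome of females, had -1.92, with 46.7 to 661 CPM of reads on genes at P7, 0, 10.7 and 286 CPM in the P14 controls and 36.9 to 64.2 CPM in the Casp2-depleted libraries at P14. Day and the sex of the pooled hearts, 2 a library at P14, cannot be told apart for Xist. Jpx, its activator, had -1.61, and Firre, which tethers X-linked loci, was called too. Of 5 tested imprinted lncRNAs, Airn, the silencer of the Igf2r cluster, fell by 2.16 on the log2 scale and the list median was -1.14. Of 14 tested snoRNA host genes other than the members, Snhg20 and Snhg9 were called lower, 8 had no read at P14, and the median was -2.68 with those set at their bound. Of 13 other tested lncRNAs, Carmn, Mhrt (-2.51) and Mir99ahg (-1.26) were called lower, and the median over the 12 above the floor was -0.998 with bounds. Mhrt lies opposite a myosin heavy chain gene and its reads are uncertain without strand.

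Of 9 tested paraspeckle proteins, which bind Neat1, 5 were called lower, beside 8.19% of all genes called in either direction, and the list median was -3.45 beside -0.87 over all genes. Sfpq, a core paraspeckle protein, had -2.28 and Smarca4, a chromatin remodeler that paraspeckles contain, -3.45, while Pspc1 had 1 read in all P14 libraries and Tardbp none. Of 8 genes of nonsense-mediated decay, the pathway that limits Gas5, 4 were called lower beside the same 8.19%, with a list median of -2.08 beside -0.87 over all genes, among them Smg5 with -3.00, Upf3a with -2.71 and Upf3b with -2.59. At P7 against P1 none of these genes was called except Mhrt (1.79, higher).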

How the data were processed

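Nuclei were sorted by PCM1, pooled over hearts and made into QuantSeq 3′ FWD libraries, read as 100 bp single ends. Per the paper's methods and the submitters' processing notes, the authors used FastQC 0.11.8, cutadapt 4.0, STAR 2.6.1e and HTSeq 2.0.3 against GRCm39 with Ensembl 108, and deposited raw counts per whole gene, exons and introns together, 1 file a library. Strand setting and molecular identifiers are not given in the sources used here. Rows for reads on no gene and ambiguous reads were not part of library sizes or tests, and the former's share is in the text. GENCODE vM39 named 56236 of the 56923 identifiers, which held 99.5% of reads.

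The fit used 21 libraries in 6 groups, edgeR 4.0.16 (TMM, quasi-likelihood F-test, Benjamini-Hochberg) in R 4.3.3, and genes that held 10 reads or more over these libraries and were read in 3 or more. limma 3.58.1 and DESeq2 1.42.0 were alternatives. In the simulated check of P14 against P7, 142 of 200 genes changed 16-fold were recovered among 20368, with 7 false calls. The counts of this check were drawn with the trended spread that the fit assumes. The check therefore does not cover genes that vary more than the trend, such as Malat1. log2 CPM used a prior count of 2. A count of 0 was read against a floor of 3 reads. Exact permutation tests, 14 in all for Malat1 and Neat1, were two-sided, on log2 CPM, and unadjusted. Replicate numbers name a batch in the deposited file names and so pair the libraries, and same-numbered control and Casp2-depleted libraries deviated together with r from -0.108 to 0.343 over 5000 genes, so the block is an alternative.

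The 7 members and all gene lists were chosen with earlier results of these data known. The genes named are the members, the 2 genes most like each member by Pearson r of log2 CPM (1 is given for 4 of the members), neighbours with at least 20 reads, and up to 3 called genes a list. Beyond that rule, Myc, Smarca4 and Sfpq were named after their values were seen. Some genes of the lists are not reported here by name. The main edgeR configuration was kept as planned. After it was seen to give Malat1 the spread of the trend, 3 other configurations were run, and all 4 are reported, with a linear model of log2 CPM, a robust fit with the share of reads on no gene, and the permutation tests. Within each library, depth of 891817 to 2924097 reads makes 3 reads worth 1.03 to 3.36 CPM.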

Additional observations from a re-analysis of the deposited data

Results flagged for a closer look

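In groups of 4 libraries, 20 sets of values were tested for a library far from the others, and 4 were flagged. The rule compares the gap to the nearest library with the range of the group. Where all other libraries of a group had no read, it flags the remaining one whatever its value. Both flags of Miat and that of Gas5 at P7 are of this kind, and the rate expected by chance is not known for such counts. All flags concern genes near 0 reads. Miat had 5.24 TMM-scaled CPM in P7 control replicate 3 and 0.47 in P7 Casp2-depleted replicate 1, with the other libraries of each group at 0. Gas5 had 9.995 CPM in P1 Casp2-depleted replicate 4 and 21.02 CPM in P7 Casp2-depleted replicate 1, the libraries with the lowest shares of reads on no gene in their groups, 36.8% and 34.3%.

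The genotype difference of Malat1 changed by -1.35 on the log2 scale between P7 and P14 (edgeR, adjusted p = 0.00409), a test of the difference itself, but the adjusted p was 0.902 once the spread of Malat1 between its own libraries entered the fit.

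The libraries left out of the fit held members above every control of their day in the fit, in CPM of reads on genes. P1 control replicate 1 had 427 of Neat1 (highest fitted control 130), 216 of Kcnq1ot1 (highest 137) and 42.9 of Gas5 (142 reads, against 0 in the others), with 9.21% of its reads on no gene. P14 control replicate 3 had 293 of Neat1 and P14 Casp2-depleted replicate 1 had 512 of Neat1, against a highest fitted control of 271, with 16.1% and 64.1% of reads on no gene. The part of that share in these values was not tested.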

How the results depend on the processing

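At P14 against P7 the fall of Malat1 kept its direction in all 16 fits and its call in 13, and that of Neat1 was called in 12 of 16. limma-voom with either normalization and the robust fit with the share of reads on no gene lost the Malat1 call, and the genotype call of Malat1 at P14 stood in 6 of 16. Leaving out 1 library at a time, the Malat1 log2 fold change ran from -4.01 to -2.85 and that of Neat1 from -3.11 to -2.44, all called. Pools of hearts, few libraries and single-library changes limit the genotype results, and low reads limit Gas5 and Miat, whose fitted folds are not given because whole groups had no read. Settings marked as robust, non-legacy or own spread were chosen after the data were seen. The cause of the changes below was not tested.

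Counts of calls that moved by over 1.5 times were as follows. At P7 against P1 (27) they were 8 with filterByExpr, 101 with DESeq2, 44 with voom quantile, 9 with all 24 libraries, 9 with the no-gene share, with or without robust spread, and 14 with own spread. At P14 against P7 (1668) they were 3242 with voom TMM, 206 with the share and 225 with the share and robust spread. At P14 against P1 (813) they were 1392 with DESeq2, 436 with voom TMM, 412 with voom quantile, 1416 with all 24, 213 with the share, 235 with the share and robust spread and 250 with own spread. Between genotypes at P1 (0) they were 105 with DESeq2, 49 and 63 with voom TMM and quantile, and 7 with own spread, and at P7 (0) 25 with DESeq2, 1 with voom quantile and 1 with own spread. At P14 (47) they were 9 with filterByExpr, 662 with DESeq2, 116 and 149 with voom TMM and quantile, 9 with the replicate block, 21 with the share, 24 with the share and robust spread, 3 with the non-legacy fit, 0 with that fit made robust and 9 with own spread. Averaged over days (7) they were 2 with filterByExpr, 214 with DESeq2, 0 with either voom, 2 with all 24, 2 with the block, 3 with robust spread, 1 with the non-legacy fit, 0 with it made robust and 0 with own spread. The interaction from P1 to P7 (0) gave 1 with no filter, 1 with RLE, 66 with DESeq2, 4 and 2 with voom, 1 with the block and 1 with own spread, and that from P7 to P14 (7) gave 2 with filterByExpr, 246 with DESeq2, 3 with the block, and 0 with the non-legacy fit, with it made robust and with own spread. Among Malat1, Neat1, Kcnq1ot1, Snhg14 and Pvt1, the block changed no call other than that of Malat1 between genotypes at P14. Calls of Gas5 and Miat under the block were not examined. Interactions of single members were not recomputed under these settings, apart from the robust fit.

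Leaving out 1 library at a time, calls ran from 12 (without P1 control replicate 2) to 70 (without P1 Casp2-depleted replicate 4) at P7 against P1, 1028 to 1772 at P14 against P7, 511 to 966 at P14 against P1, 21 to 249 between genotypes at P14 (249 without P14 control replicate 2), 3 to 44 averaged over days, 0 to 1 in the interaction from P1 to P7 and 4 to 70 in that from P7 to P14.

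No log2 fold change that changed sign was called in the reported fit, but not all were small. There Neat1 at P14 against P1 was -0.86. Malat1 at P7 against P1 was 0.62 (edgeR, adjusted p = 0.00438) and missed a call only by the fold threshold. Pvt1, at 0.00 between days, gave -0.059, 0.13 and 0.072 for P7 against P1, P14 against P7 and P14 against P1 with filterByExpr, -0.031, 0.071 and 0.040 with no filter, -0.16, 0.33 and 0.17 with RLE, -0.041, 0.11 and 0.067 with library sizes without the members, -0.16, 0.33 and 0.17 with DESeq2, -0.31, 0.38 and 0.069 with voom quantile, -0.0089, 0.038 and 0.029 with the replicate block and -0.081, 0.11 and 0.026 with own spread. With voom TMM it gave -0.14 and 0.14 and with both non-legacy fits -0.023 and 0.012 in the first and second of these. Between genotypes Pvt1 gave 0.084 averaged over days with voom quantile and 0.048 at P1 with all 24. Snhg14 at P7 against P1 gave -0.12 with RLE and with DESeq2. Malat1 at P7 against P1 gave -0.33 with voom quantile and -0.17 with the share, with or without robust spread, and between genotypes at P1 -0.11 with the block and -0.61 with the share in both fits. Neat1 at P14 against P1 gave 0.69 with the share in both fits. Kcnq1ot1 gave -0.30 at P14 against P1 and 0.28 between genotypes at P14 with all 24, and 0.11 in the latter with the block. Leaving out 1 library at a time, the ranges were -0.19 to 0.16, -0.051 to 0.29 and -0.15 to 0.24 for Pvt1 over the comparisons of days and -0.58 to 0.043 between genotypes at P1, -0.26 to 0.81 for Malat1 between genotypes at P1, -0.12 to 0.34 for Snhg14 at P7 against P1, and for Kcnq1ot1 -0.25 to 0.48 at P14 against P1, -0.12 to 1.15 between genotypes at P1 and -0.70 to 0.25 at P14.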
